A study of Mus musculus with 4 samples.

Results

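The 10 genes followed here in the colonic mucosa of mice are tied to the interferon gamma response: 7 genes for immunity GTPases (Irgm1, Irgm2, Igtp, Iigp1, Tgtp1, Gbp2 and Gbp3), the transcription factor gene Irf1, the chemokine gene Cxcl9 and Ubd, which encodes the ubiquitin-like protein FAT10. They were chosen by name, and partly on their measured P90/P30 ratios on these same arrays, so those ratios are described without a test. Their accessions matched 13 of the 41174 gene probes of the arrays, with a pair of probes each for Irgm1, Tgtp1 and Irf1 and 1 probe for every other gene. The whole set of 10 genes was among the 20825 genes and transcripts bright enough to be analysed.

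RNA of P90 mice (postnatal day 90, young adults) was compared with RNA of P30 mice (postnatal day 30, juveniles), all of the strain C57BL/6, from colonic mucosa sheared off with a microscope slide. Each of 4 two-colour arrays, called a, b, e and k as in the labels, received 1 P90 and 1 P30 RNA. On array e the dyes were exchanged: there P90 was labelled with Cy5, and on the other three with Cy3. The labels call the 4 comparisons independent without saying which animals gave which RNA, so an SD given below measures only how far the 4 hybridised pairs differ, which can be technical variation. No treatment, transgene or mutation is named for either age.

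Interferon gamma is released by T cells and natural killer cells. Its receptor signals through the kinases Jak1 and Jak2 to promoter elements called GAS. Irf1, itself induced by interferon gamma, and related factors bind a second kind of element, the ISRE. Among the strongest targets in mouse cells are the immunity-related GTPases (IRG) and the guanylate-binding proteins (GBP), which attack the membranes of vacuoles that hold intracellular pathogens. Irgm1, Irgm2 and Igtp belong to the GMS group of IRG proteins, which regulate the others, and Iigp1 and Tgtp1 to the GKS group of effectors. Cxcl9 draws T cells that carry its receptor Cxcr3. FAT10 marks proteins for the proteasome, and tumour necrosis factor and interferon gamma together are known to induce its gene.

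The promoters show where these genes resemble each other and where they differ. RefSeq promoter windows (GRCm38.p6, 250 bases before to 50 bases after the transcription start) were found for 9 of the 10 genes, 11 windows in all, with 2 starts each for Gbp3 and Irf1. They were searched for the GAS letters TTCNNNGAA, which match on both strands alike, and for an ISRE pattern of GAAA, any 2 bases and GAAA again, on the gene's strand or the other. ISRE matches may overlap each other. Of all 32841 windows of this length, 8.3% held a GAS match, 3.44% an ISRE match and 0.454% both. Counted per gene and not per window, with a match in any window of the gene, 4 of the 9 genes had a GAS match. By the same count 6 had an ISRE match, 3 both and 2 neither. A match is a run of letters and not a shown binding site.

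In Irgm2, Igtp and Tgtp1 the GAS and the ISRE lay 2 bases apart, in that order. This arrangement, counted on either strand, was found in 5 of the 32841 windows (0.0152%). The others belonged to Tgtp2, a close relative of Tgtp1, and to Gm12185. The spacing that was counted is the one seen in these genes themselves, so its rarity is described and not tested. Irgm2 and Igtp are next to each other on chromosome 11 among protein-coding genes. Over 100 bases aligned at the GAS they had 97 identical positions, Irgm2 and Tgtp1 had 50, and Igtp and Tgtp1 had 47. Tgtp1 and Tgtp2 had 62. The windows are shown in lower case with GAS and ISRE matches in capitals. They lie at chr11:58214727-58215026 (Irgm2, plus strand), chr11:58199306-58199605 (Igtp, plus strand) and chr11:48992197-48992496 (Tgtp1, minus strand).
Irgm2: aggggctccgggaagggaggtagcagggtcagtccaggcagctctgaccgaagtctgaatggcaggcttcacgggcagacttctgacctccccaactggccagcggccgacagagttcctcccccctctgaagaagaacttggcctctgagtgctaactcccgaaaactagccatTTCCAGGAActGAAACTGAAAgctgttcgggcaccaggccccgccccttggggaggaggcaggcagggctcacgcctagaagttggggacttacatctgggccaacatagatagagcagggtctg
Igtp: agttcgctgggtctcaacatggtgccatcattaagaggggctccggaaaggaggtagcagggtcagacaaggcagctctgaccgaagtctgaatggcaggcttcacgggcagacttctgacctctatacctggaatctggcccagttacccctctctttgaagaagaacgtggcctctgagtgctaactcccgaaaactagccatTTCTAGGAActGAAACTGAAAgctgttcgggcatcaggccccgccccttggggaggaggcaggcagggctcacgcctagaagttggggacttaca
Tgtp1: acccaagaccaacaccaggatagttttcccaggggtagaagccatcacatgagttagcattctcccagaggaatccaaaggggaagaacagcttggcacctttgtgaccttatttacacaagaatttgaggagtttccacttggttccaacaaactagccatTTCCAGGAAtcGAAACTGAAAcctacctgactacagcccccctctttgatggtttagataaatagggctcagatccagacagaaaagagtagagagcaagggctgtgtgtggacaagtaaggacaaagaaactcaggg

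The windows of Irgm1 and of the first start of Gbp3 held 2 overlapping ISRE matches each and no GAS match, and that of the first start of Irf1 a GAS match alone. The windows of Ubd and Cxcl9, and those of the second starts of Gbp3 and Irf1, held neither pattern, which says only that these letters are not there. The Gbp2 window had 1 ISRE match, at -59 to -50 from its start. The following 4 windows are given because their genes lay on one side of 0 on every array or, in the case of Irf1, because the gene encodes a factor that binds such elements. They lie at chr11:48871371-48871670 (Irgm1, minus strand), chr3:142559794-142560093 (Gbp3, plus strand), chr11:53769764-53770063 (Irf1, plus strand) and chr17:37193642-37193941 (Ubd, plus strand).
Irgm1: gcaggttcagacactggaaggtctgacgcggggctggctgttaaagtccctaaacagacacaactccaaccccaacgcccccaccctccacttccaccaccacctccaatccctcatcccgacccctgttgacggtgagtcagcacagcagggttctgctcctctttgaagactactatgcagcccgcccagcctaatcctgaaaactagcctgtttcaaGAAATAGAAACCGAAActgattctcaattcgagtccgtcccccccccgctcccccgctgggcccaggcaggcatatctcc
Gbp3: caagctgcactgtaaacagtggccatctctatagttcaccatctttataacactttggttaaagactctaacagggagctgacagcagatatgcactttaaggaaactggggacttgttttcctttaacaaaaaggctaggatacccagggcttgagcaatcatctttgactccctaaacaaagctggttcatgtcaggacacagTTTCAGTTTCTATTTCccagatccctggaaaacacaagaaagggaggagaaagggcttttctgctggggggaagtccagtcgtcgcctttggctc
Irf1: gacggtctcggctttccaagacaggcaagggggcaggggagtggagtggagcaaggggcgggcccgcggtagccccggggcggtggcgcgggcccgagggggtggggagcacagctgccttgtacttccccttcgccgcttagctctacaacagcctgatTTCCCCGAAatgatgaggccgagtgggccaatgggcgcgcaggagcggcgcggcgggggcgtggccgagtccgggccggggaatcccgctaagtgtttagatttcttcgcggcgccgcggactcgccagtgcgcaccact
Ubd: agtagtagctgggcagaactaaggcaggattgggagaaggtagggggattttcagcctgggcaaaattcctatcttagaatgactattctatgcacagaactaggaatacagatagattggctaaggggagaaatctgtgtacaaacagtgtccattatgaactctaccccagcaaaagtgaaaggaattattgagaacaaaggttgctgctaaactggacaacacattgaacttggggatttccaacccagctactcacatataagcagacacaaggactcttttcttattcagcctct

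**Figure D1:**
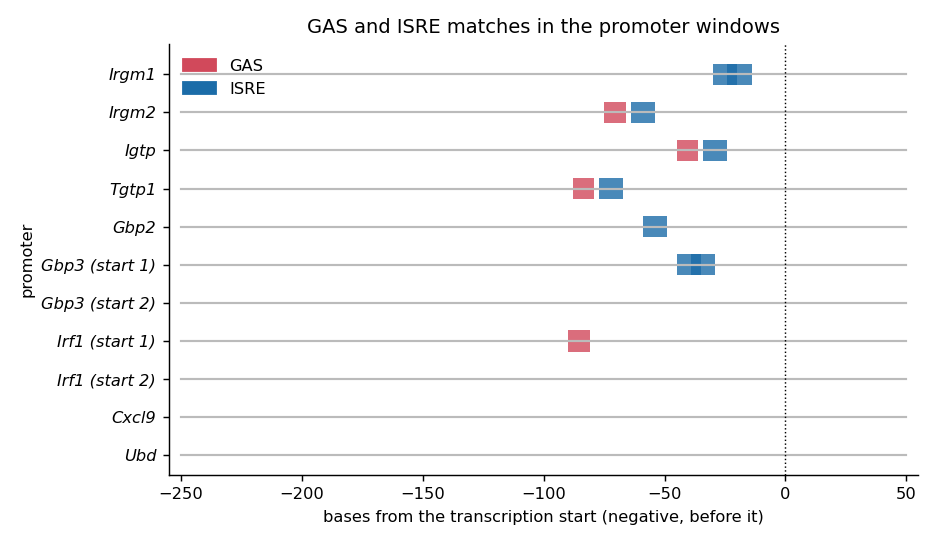
GAS matches (red) and ISRE matches (blue) in the promoter windows of the genes; the horizontal axis gives bases from the transcription start and each row is 1 window. Irgm2, Igtp and Tgtp1 have a GAS followed by an ISRE at a distance of 2 bases, and Cxcl9 and Ubd have neither.

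In the P90 channel 55.6% to 69.3% of gene spots, and in the P30 channel 64.6% to 71.0%, were marked as well above background. Across genes, the log2 P90/P30 of array b ran against the others, with a Pearson r of -0.31 to array a, -0.27 to e and -0.19 to k, while the other three correlated positively among themselves (0.31 to 0.60). Taken over every probe, r between a and b was -0.303. Since the dyes are stated in the labels, the labelled direction was kept, and means of the 10 genes without array b or with its sign turned are given where they move by over 1.5 times. Of 10 colonic epithelial markers, 9 were measured and were well above background in both channels on every array, 6 of them saturated on at least 1. No gene passed the limma test after Benjamini-Hochberg adjustment, in either direction (0% of 20825 genes; smallest adjusted p = 0.618), whereas 1641 genes had an unadjusted p below 0.05, 1101 lower and 540 higher at P90, against 1041 by chance. That number was 681 without array a, 4653 without b, 970 without e, 1001 without k and 4975 with b turned.

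The 10 genes did not move as a block. Irgm1, Irgm2, Igtp and Gbp3 were lower at P90 on all 4 arrays, Ubd was higher at P90 on all 4, and Iigp1, Tgtp1, Gbp2, Irf1 and Cxcl9 had both signs. The median log2 P90/P30 of the 7 GTPases was -1.61, -0.26, -1.41 and -0.50 on the arrays in that order, a mean of -0.95 ± 0.66 (SD, n = 4), where the medians of all genes analysed ran from -0.042 to -0.0042. A log2 value of -1 is a level at P90 of 1 part in 2 of that at P30. Being below 0 on all 4 arrays was met by 4 of the 7 GTPases and by 7.96% of all genes, and being above 0 on all 4 by 1 of the other 3 members and by 6.17% of all genes; the choice of the members used these ratios, and nothing is read from the counts. In whole-mucosa RNA, fewer cells of a type and less RNA per cell cannot be told apart.

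**Figure D2:**
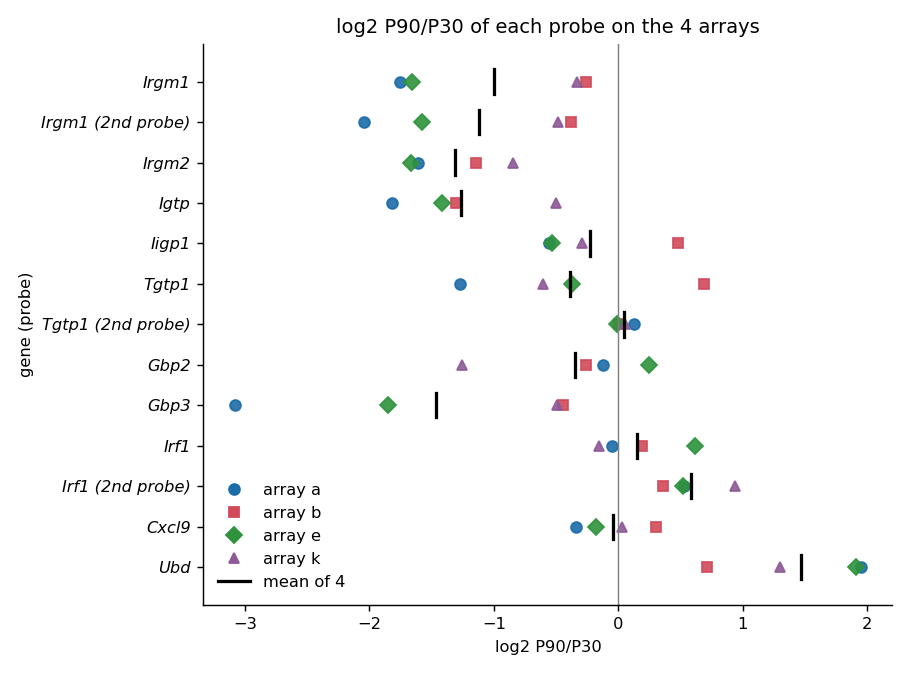
log2 P90/P30 of the 13 probes (rows) on arrays a, b, e and k (symbols), with the mean of the 4 as a black bar. Both Irgm1 probes, Irgm2, Igtp and Gbp3 lie below 0 on every array and Ubd lies above 0 on every array, while the first Irf1 probe, Cxcl9, Gbp2, Iigp1 and both Tgtp1 probes span 0.

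The 3 GMS genes were below 0 on all 4 arrays. Irgm2 had normalised levels (log2 signal, after loess and between-array scaling) of 10.95, 10.65, 10.43 and 10.09 in the P90 RNA of arrays a, b, e and k, against 12.55, 11.79, 12.10 and 10.94 in the P30 RNA. Each P90 RNA was below the P30 RNA of its own array, and the groups overlapped only because the P30 RNA of array k, at 10.94, was just under the P90 RNA of array a. The log2 P90/P30 of Irgm2 was -1.61, -1.14, -1.67 and -0.84 on a, b, e and k, a mean of -1.31 ± 0.39 (SD, n = 4), or -0.74 with array b turned.

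Igtp, the gene beside Irgm2, had levels of 10.71, 10.43, 10.66 and 10.51 at P90, against 12.53, 11.73, 12.07 and 11.01 at P30. Every P90 level was below every P30 level, which held for 1.77% of all genes, and the P90 RNAs were close together (SD 0.13) while the P30 RNAs were spread (SD 0.64). Its log2 P90/P30 was -1.82, -1.30, -1.41 and -0.50 on arrays a, b, e and k, a mean of -1.26 ± 0.55 (SD, n = 4), or -0.61 with array b turned. The files hold no probe sequences, so binding of one probe to transcripts of both neighbours was not tested.

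Irgm1, which is needed in mice for resistance to several intracellular bacteria, was read by a pair of probes that gave like values. With the brighter probe its levels were 10.64, 11.10, 10.16 and 10.14 at P90, against 12.40, 11.36, 11.82 and 10.47 at P30. The groups overlapped, and the gap within a pair was wide on arrays a and e and narrow on b and k. The log2 P90/P30 was -1.76, -0.26, -1.66 and -0.33 on a, b, e and k (mean -1.0 ± 0.82, SD, n = 4), and the second probe gave -2.04, -0.38, -1.58 and -0.48 (mean -1.12 ± 0.82).

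**Figure D3:**
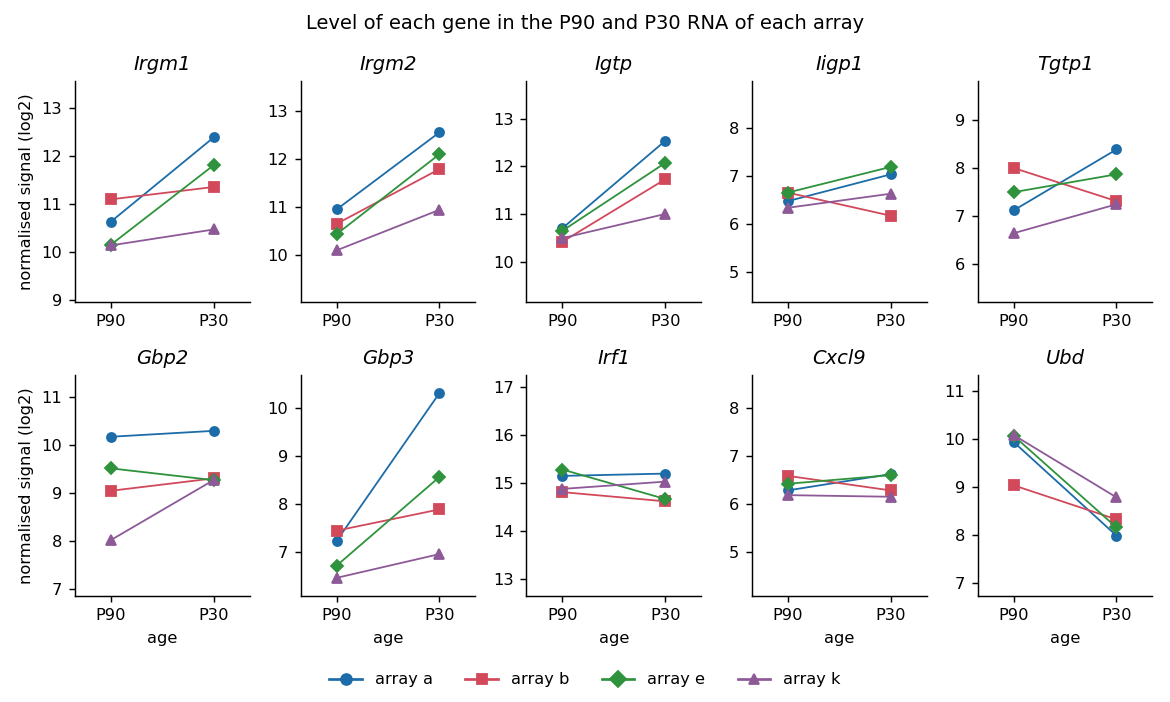
Normalised signal (log2) of each gene in the P90 RNA (left) and the P30 RNA (right) of each array; lines join the RNAs hybridised together, and all panels span the same range in log2 units. The lines of Irgm1, Irgm2, Igtp and Gbp3 run up towards P30 on all 4 arrays and those of Ubd run down.

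The GKS effectors split by array. Tgtp1 had levels of 7.12, 8.0, 7.50 and 6.64 in the P90 RNA of arrays a, b, e and k, against 8.39, 7.31, 7.87 and 7.25 in the P30 RNA. It was lower at P90 on a, e and k and higher on b, with log2 P90/P30 values of -1.27, 0.69, -0.37 and -0.60 (mean -0.39 ± 0.81, SD, n = 4), so the spread exceeded the mean. Its second probe, near the floor that the added offset sets, ran from -0.013 to 0.13, and neither probe can be assigned to Tgtp1 apart from Tgtp2. Without array b the mean of the brighter probe was -0.75, with b turned -0.73, without array a -0.094, and it was -1.09 with the deposited log ratios.

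Iigp1, whose protein coats the vacuole of Toxoplasma, was dim, being well above background on 2 of 4 arrays in the P90 channel and on 4 of 4 in the P30 channel. Its levels were 6.48, 6.66, 6.66 and 6.34 at P90, against 7.04, 6.18, 7.19 and 6.64 at P30, which overlap. The log2 P90/P30 was -0.56, 0.48, -0.53 and -0.29 on a, b, e and k (mean -0.23 ± 0.49, SD, n = 4). Without array b it was -0.46, with b turned -0.47 and without array a -0.12. The mean was -0.35 with the offset lowered to 16 and -1.08 with the deposited log ratios, which differ in background and scaling too.

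The 2 guanylate-binding protein genes, which lie in 1 cluster on chromosome 3, behaved unlike each other. Gbp3 had levels of 7.23, 7.44, 6.71 and 6.46 at P90, against 10.31, 7.89, 8.56 and 6.95 at P30. The P30 RNA of array a stood highest and that of array k was below 2 of the P90 RNAs, so that the groups overlapped. Its log2 P90/P30 was -3.08, -0.44, -1.85 and -0.50 on a, b, e and k (mean -1.47 ± 1.26, SD, n = 4). Without array a the mean was -0.93, and with the deposited log ratios it was -2.61. Its uncorrected P90 signals on a, e and k were 77, 105 and 65, over backgrounds of 41, 63 and 37, and on b 231 over 40. Though marked as well above background on all 4 arrays, Gbp3 was thus dim at P90, which limits the size of its ratio.

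Gbp2 had levels of 10.18, 9.05, 9.52 and 8.02 at P90, against 10.30, 9.31, 9.27 and 9.27 at P30, and the groups overlapped throughout. Array k alone showed a wide gap, with a log2 P90/P30 of -1.25, against -0.12 on a, -0.26 on b and 0.24 on e (mean -0.35 ± 0.64, SD, n = 4). Without array k the mean was -0.046, and with b turned -0.22. Across the 7 GTPases, the SD between P30 RNAs was larger than that between P90 RNAs for 5 (all but Tgtp1 and Gbp2), where 42.2% of all genes had the larger SD at P30.

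Irf1, the interferon-induced transcription factor gene, did not share the direction of Irgm1, Irgm2, Igtp and Gbp3. Its brighter probe had levels of 15.14, 14.80, 15.28 and 14.87 at P90, against 15.19, 14.61, 14.66 and 15.02 at P30, near the top of the scanner's range without being marked as saturated. The log2 P90/P30 was -0.048, 0.19, 0.61 and -0.15 on a, b, e and k (mean 0.15 ± 0.34, SD, n = 4), with both signs. The dimmer probe was above 0 on all 4 arrays, at 0.53, 0.36, 0.52 and 0.94 (mean 0.59 ± 0.25), with levels of 10.11, 10.12, 9.24 and 9.99 at P90, against 9.58, 9.76, 8.72 and 9.05 at P30. The 2 probes of Irf1 thus disagree, and with median centring in place of loess the mean of the brighter one was -0.14, without array e -0.0028 and with b turned 0.056.

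Cxcl9 was close to background, being well above it on 2 of 4 arrays at P90 and on 4 of 4 at P30. Its levels were 6.29, 6.59, 6.43 and 6.19 at P90, against 6.63, 6.29, 6.60 and 6.15 at P30, which overlap. The log2 P90/P30 was -0.34, 0.30, -0.18 and 0.034 on a, b, e and k (mean -0.046 ± 0.28, SD, n = 4), so no difference could be read from this signal. Without array b it was -0.16 and with b turned -0.20. Cxcl10, close by and another ligand of Cxcr3, was at -0.72 ± 0.43 and below 0 on all 4 arrays, and Cxcr3 itself was at 0.18 ± 0.10, from 0.042 to 0.27; neither passed the limma test. Cxcl11, the third ligand, was not among the genes analysed.

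Ubd ran opposite to the GTPases that were lower at P90. Its levels were 9.93, 9.03, 10.06 and 10.07 in the P90 RNA of arrays a, b, e and k, against 7.98, 8.32, 8.15 and 8.78 in the P30 RNA. Every P90 level was above every P30 level, which held for 0.894% of all genes. The log2 P90/P30 was 1.95, 0.71, 1.91 and 1.30 on a, b, e and k, a mean of 1.47 ± 0.59 (SD, n = 4), and it was above 0 with P90 in either dye. On arrays a and e, where Ubd was most above 0, Irgm1 and Gbp3 were most below it.

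Upstream of these targets, the list of interferon gamma and its receptor signalling (19 of 22 genes measured) had a median log2 P90/P30 of -0.14. It had 13 means below 0, 2 genes below 0 on all 4 arrays and 1 above. Over all genes analysed these shares were 54.4%, 7.96% and 6.17%, and nothing is read from the counts. No cause was tested. None of the genes in this list passed the limma test over all genes. Irf9, a transcription factor gene of the type I interferon response, was at -1.05 ± 0.44 (SD, n = 4), with a second, dimmer probe at -0.19. The receptor chains Ifngr1 and Ifngr2, the brightest genes of the list, were at -0.27 ± 0.60 and -0.14 ± 0.57. A second, dimmer Ifngr2 probe was at 0.21. Tbx21, which drives interferon gamma production in T cells, was at 0.51 ± 0.30 and above 0 on all 4 arrays. The gene of the cytokine itself, Ifng, was not among the genes analysed.

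Of 20 remaining IRG and GBP genes listed, 9 were measured, with a median of -0.031. Of these, 6 had a mean below 0, where 54.4% of all genes did. None was below 0 on all 4 arrays, 1 was above 0 on all 4 and none passed the limma test. Ifi47, a GTPase gene of the same chromosome 11 cluster as Irgm1 and Tgtp1, was at -2.16, 0.11, -1.31 and 0.21 on arrays a, b, e and k (mean -0.79 ± 1.15, SD, n = 4). Gvin1, a giant interferon-inducible GTPase, ran from -2.59 on array a to 2.60 on array b. Gm12250, the coding gene just before Igtp, was at -0.27 ± 0.31 and Irgq was at 0.40 ± 0.27. A second, dimmer Irgq probe was at 0.26, with both signs. Among GBP genes, Gbp5 was at -0.031 ± 0.22, Gbp6 at -0.31 ± 0.30, Gbp7 at -0.13 ± 0.15, Gbp8 at 0.25 ± 0.74 and Gbp9 at -0.00011 ± 0.15. Many of these were dim: in the P90 channel Gbp7 and Gm12250 were well above background on 1 array and Gbp6 on 2. Gbp5, Gbp8 and Gbp9 had mean log2 intensities of 6.82, 6.75 and 6.78, beside 6.64 for the dim member Iigp1. The added offset draws the ratios of dim genes towards 0, so a median near 0 does not show that these genes were unchanged. Whether their ratios differ from those of Irgm2 and Igtp was not tested.

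Other targets of interferon gamma had means on both sides of 0. Their list (19 of 23 measured) had a median of -0.16, with 10 means below 0 and 9 above, 1 gene (Cxcl10) below 0 on all 4 arrays, none above, and none past the limma test. Psmb10, an immunoproteasome subunit gene, was at 0.020 ± 0.19 (SD, n = 4), and Psme2, an activator subunit gene, was at -0.16 ± 0.20, with spots saturated on 1 array at P90 and on 3 at P30. Its ratio is the median of the list, and its second probe was at -0.32. The type I interferon list (24 of 30 measured) lay lower, with a median of -1.10, 24 means below 0, 18 genes below 0 on all 4 arrays and none past the test; Isg15, Oasl2 and Rtp4 were at -2.46, -2.43 and -2.31, and Oas1a and Oasl1 at -0.88 and -0.65. By array, in the same order as above, its median was -1.67, -1.47, -1.38 and -0.48.

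Lists around FAT10 and around GTPase loading were also near 0, and none of their genes passed the limma test. Targets of tumour necrosis factor and NF-κB (12 of 16 measured) had a median of 0.10, with Nfkb2 at 0.54 ± 0.34 and Relb at 0.49 ± 0.32 (SD, n = 4), both above 0 on all 4 arrays, and the inhibitor gene Nfkbia at -0.17 ± 0.04 and below 0 on all 4; Sod2 was at -0.012 ± 0.37. The FAT10 conjugation list (7 of 7) had a median of 0.068. The E2 enzyme gene Ube2z was at 0.30 ± 0.092, Vcp, an unfoldase gene, at -0.60 ± 0.39 and Sqstm1, an autophagy receptor gene, at -0.034 ± 0.52. Second, dimmer probes gave 0.21 for Ube2z and -0.11 for Vcp, each with both signs. The autophagy conjugation list (10 of 11), whose products place IRG and GBP proteins on vacuoles, had a median of 0.18. With their brighter probes, Gabarapl1 was at 0.77 ± 0.34 and Map1lc3b at 0.26 ± 0.23, both above 0 on all 4 arrays. The second Gabarapl1 probe was at 0.69 and also above 0 on all 4, whereas that of Map1lc3b was at 0.14 and ran from -0.38 to 0.63.

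**Figure D4:**
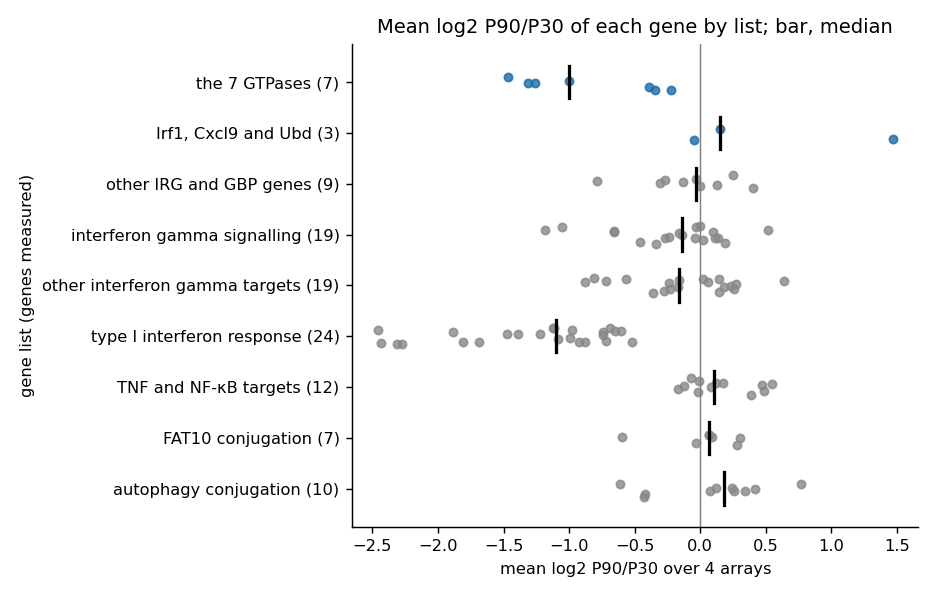
Mean log2 P90/P30 over 4 arrays of each measured gene (points) in the lists (rows, with the number measured), with the median of each list as a black bar; points are spread vertically for clarity. The GTPases and the type I interferon list lie to the left, with medians of -1.0 and -1.10 over genes, and the other lists have medians between -0.16 and 0.18.

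Markers of other cells differed between the same arrays. Fibroblast markers (6 of 6) had medians of -3.94, 1.45, -2.32 and -3.22 by array, and macrophage and dendritic markers (9 of 10) of -0.81, 1.04, -0.34 and -0.39. T and NK cell markers (10 of 11) had medians of -0.21, 0.55, 0.19 and 0.89. Endothelial markers (6 of 6) were at -0.91, 0.88, -0.46 and -1.30. Adipocyte markers (5 of 6) had medians of 0.056, 2.65, 5.46 and 0.73, above 0 on every array. Of the 5, 3 were above 0 on all 4 arrays, as were 6.17% of all genes. On array b the fibroblast and macrophage medians were above 0, Irgm1, Irgm2, Igtp and Gbp3 were below 0, and Iigp1 and Tgtp1 were above it.

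The summed normalised signal of the macrophage and dendritic list ran from 1428 to 4221 in the P90 RNAs, against 1600 to 6040 in the P30 RNAs, and that of the fibroblast list from 1966 to 28486, against 10408 to 85857. The T and NK cell list summed to between 1312 and 3725 in the P90 RNAs, against 1474 to 2009 in the P30 RNAs. All 10 measured T and NK cell markers were well above background in both channels on every array; of the 9 macrophage and dendritic markers, 7 were so at P90 and 9 at P30. The adipocyte list summed to between 5896 and 171712 in the P90 RNAs, against 3443 to 12113 in the P30 RNAs. The part of these cells in the ratios of the 10 genes was not tested. Without array b, 6 of the 7 GTPases (all but Gbp2) were below 0 on the 3 remaining arrays, as were 27% of all genes.

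**Figure D5:**
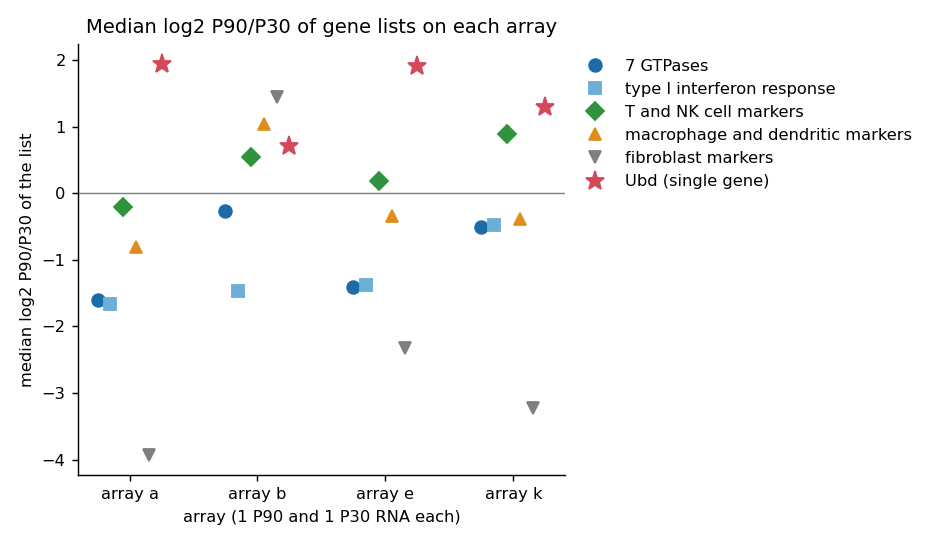
Median log2 P90/P30 of gene lists on each array (horizontal axis), with the single gene Ubd as stars; symbols are set side by side within an array. The median of the GTPases is below 0 on every array, from -1.61 on a to -0.26 on b, and Ubd is above 0. The medians of fibroblast and macrophage markers exceed 0 on array b alone.

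Likeness was measured as the Euclidean distance between the 4 array ratios of a gene and the median profile of the 7 GTPases, over 13898 other genes with a symbol. The nearest were Fbxo5 (distance 0.15), Dis3 (0.27), Dtl (0.31), Tpx2 (0.31) and Mtbp (0.34). Fbxo5 encodes an inhibitor of the anaphase-promoting complex, and Tpx2 a spindle protein. Of the GTPases themselves Irgm1 was nearest, at 0.33, and Gbp2 farthest, at 2.35. Irgm2 was at 0.98, Igtp at 1.06, Tgtp1 at 1.45, Gbp3 at 1.55 and Iigp1 at 1.57. The named genes were picked as the nearest of 13898, so their small distances follow from that choice. They are not to be compared with the distances of the GTPases. Nearest to Ubd were Cyp2d12 (0.80), the carboxylesterase gene Ces2a (0.88) and the histone gene H2bu2 (1.02).

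Analysed coding genes next in order to the members on the chromosome were compared too, whatever their distance. The nearest analysed coding genes on one side of Irgm1 were Trim7 at 0.038 ± 0.20 (SD, n = 4) and Trim41 at 0.30 ± 0.19, and past Irgm2 lay Zfp692 at -0.020 ± 0.49. Beside Ubd, which was at 1.47, Olfr90 was at 0.026 ± 0.20 and Olfr95 at 0.040 ± 0.13. Gabbr1 was at -0.024 ± 0.36 and H2-M3 at 0.041 ± 0.20. The brightness of these neighbours was not compared with that of Ubd. The 4 genes analysed around Irf1 had means of 0.076 (Il13) to 0.29 (Slc22a5). Below 0 on all 4 arrays were, in the order around Cxcl9, Sdad1 at -0.56 ± 0.68 and Cxcl10. So were Isoc1 at -0.37 ± 0.17 in the order around Iigp1 and Gtf2b at -0.29 ± 0.36 in that around Gbp2.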

How the data were processed

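The members and gene lists were chosen with earlier results of these data known. Per the file headers, the deposited scanner files give the linear median intensity of each spot and of the background around it; the deposited processed signals were background-subtracted and scaled per dye by Feature Extraction, Agilent's scanner software. Its version is 10.5.1.1 in the headers, while the submitters' processing notes name 8.5.1.1. Per the file headers, a deposited log10 ratio sets red (Cy5) over green (Cy3). Marks for outliers, background and saturation (other values, 0 or 1) come from the same deposited files. The authors' value table holds log2 ratios that matched the deposited log ratio, turned to P90 over P30, within 0.01 for 80.0% to 87.0% of probes; its column medians were 0.21 (array a), -0.17 (b), 0.049 (e) and 0.17 (k), its scale and direction fit that match, and its normalization is not given in the sources used here.

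Background was corrected with normexp (offset 50), followed by loess (span 0.3) in which control spots had no weight, with limma 3.58.1 and R 4.3.3. Outlier spots were left out (127 to 156 per array). Ratios were turned to P90 over P30, spots of a probe averaged, probes kept if well above background on at least 3 arrays at one age (27055 of 41174), and the brightest probe stood for its gene; 25097 probes were named through RefSeq accessions. The number of arrays limits the precision. Levels per RNA were scaled between arrays by average-intensity quantiles (Aquantile). The mean ratio was tested against 0 with lmFit and eBayes over 20825 genes, with Benjamini-Hochberg adjustment (threshold 0.05), and the fit was tested on simulated data. Members, chosen on the same ratios, got no test. Named are all members, every measured IRG or GBP gene, per pathway list the 3 largest means of 1 direction on all arrays and the 2 brightest genes, the 5 profiles nearest the GTPases and the 3 nearest Ubd; genes named as chromosomal neighbours or as not analysed fall outside this rule. A gene that the rule names is not reported here. Alternatives covered background, signal, normalization, filter, probe choice, saturation, dye, weights, variance and arrays left out. All arrays lay on 1 slide, so no batch could be tested.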

Additional observations from a re-analysis of the deposited data

Results flagged for a closer look

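An array far from the others was found for 5 of the values examined, which were levels at a given age or list medians of log2 P90/P30. The P30 level of Gbp2 was 10.30 on array a, against 9.27 to 9.31 on the 3 other arrays. The P90 level of Ubd was 9.03 on array b, against 9.93 to 10.07 on the others, and that of the dimmer Irf1 probe was 9.24 on array e, against 9.99 to 10.12. Among list medians, the FAT10 conjugation list was at -0.027 on array k, against 0.13 to 0.16, and the smooth muscle markers at -1.22 on array k, against 0.85 to 1.0. Chance flags about 1 in 20 groups, and 61 groups of 4 values were examined.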

How the results depend on the processing

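With 21 alternatives, no gene was called in 17; 1 was called with the smaller normexp offset of 16, and 2 each from processed signals, deposited log ratios and the value table, all higher at P90. Leaving out each array in turn called 0 genes each time. The median of the 7 GTPases stayed below 0 in all 21, from -0.72 to -1.17 with 1 array left out. Reading array e against its labelled dyes moved it to -0.24, Igtp to -0.55, Irgm1 to -0.17, Irgm2 to -0.48, Gbp3 to -0.54 and Ubd to 0.51; turning array b moved Igtp to -0.61 and Irgm2 to -0.74. Iigp1 moved to -0.99 under processed signals, to -1.08 under deposited log ratios and to -1.08 under the value table. GTPases below 0 on every array numbered 4 as analysed, 2 with b turned, 1 with e unturned, and 7 with b and e left out (a count chosen after seeing the data); with 1 array left out it ran from 4 to 6. Ubd was above 0, and Irgm1, Irgm2, Igtp, Gbp2, Gbp3 and Tgtp1 below 0, in all 21. Irf1 was above 0 in 17 and Cxcl9 below 0 in 17 of 20. Some of the 21, such as those on variance and saturation, left the mean ratios of the members unchanged. The value table nearly repeats the deposited log ratios. These counts, for genes chosen on the same ratios, thus overstate the number of separate checks. Iigp1 and Cxcl9 gave no value under the strict filter. Each ratio already pairs the P90 and P30 RNA of 1 array, so no further block was fitted. Dimness limits Iigp1, Cxcl9, the second Tgtp1 probe, the P90 signal of Gbp3, Gbp6, Gbp7 and Gm12250, among others.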
